A study of Homo sapiens with 36 samples.

Results

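The p53 target genes followed here are 34 genes that the tumour suppressor p53 is known to switch on in human cells. They were taken by name from a count table of 36601 genes, and each name matched a single entry. The genes lie on 15 chromosomes. The cells are HEK293, an established line derived from human embryonic kidney, in which endogenous proteins were fused to HaloTag. HaloTag is a modified bacterial enzyme that forms a covalent bond with its ligands. The ligand HyT36 carries a hydrophobic group and is meant to put misfolding stress on the fused protein. The 12 bulk RNA libraries form 4 groups of 3 libraries: clone 4 with 25 µM HyT36, clone 4 with the vehicle DMSO, clone 5 with 25 µM HyT36 and clone 5 with DMSO. Each clone number stands for a single clonal line of the tagged library, so a difference between the clones is a difference between these lines only. The labels do not name the tagged protein of either clone. They list ligand exposures of 2 and 12 h without saying which was used for bulk RNA. No bulk library of untagged cells was analysed here, so an effect of the ligand that needs no tag cannot be told apart from an effect through the tag.

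p53 is a transcription factor that accumulates after DNA damage and other stress and binds paired half-sites in DNA. Its targets slow the cell cycle, repair DNA, favour or restrain cell death, adjust metabolism and feed back on p53, and MDM2, itself a target, marks p53 for degradation. HEK293 cells carry the adenoviral genes E1A and E1B, and an E1B product binds p53 and represses its activity. The members were ordered by these roles: cell cycle, feedback on p53, death receptors and cell death, metabolism and mitochondria, DNA repair and nucleotide supply, and others. The cell cycle role holds brakes on the cycle and the cyclins G, with SERTAD1, PLK2 and PLK3.

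Of the 34 members, 24 had a RefSeq promoter sequence on GRCh38.p14, some with several starts. An exact match to the consensus half-site for p53 lay within the 250 bases before a start in 4 of these 24. They are AEN, FAS, FDXR and PLK2. Half-sites that depart from the consensus were not counted, so a window without a match may still hold one. That is 16.7% of the members in the sequence table, against 6.80% of all 27305 genes in it. The motif CACGTG, bound by basic helix-loop-helix factors, was found in CCNG2 and CDIP1, or 8.33% of the members, against 7.73% of all genes. TGANTCA, the AP-1 motif, was found in FAS, MDM2 and PERP, or 12.5% of the members, against 8.06% of all genes. Both strands were searched, and a match only says that the letters are there. The windows of 4 members are shown because these genes stand for the patterns described next: CCNG2, which rose in both clones, BTG2, which fell in both, PLK2, which fell in clone 5 and holds a half-site, and FDXR, which holds a half-site and passed in neither clone. Each window is the 250 bases before the start, read 5′ to 3′ on the gene's strand, with the motif match in capitals where there is one.
CCNG2, chr4:77156957-77157206, plus strand: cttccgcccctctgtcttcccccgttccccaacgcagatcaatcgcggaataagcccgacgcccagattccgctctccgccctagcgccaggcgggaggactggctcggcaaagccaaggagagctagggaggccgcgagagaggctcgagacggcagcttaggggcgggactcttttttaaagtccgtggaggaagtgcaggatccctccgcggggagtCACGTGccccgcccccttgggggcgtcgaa
BTG2, chr1:203305269-203305518, plus strand: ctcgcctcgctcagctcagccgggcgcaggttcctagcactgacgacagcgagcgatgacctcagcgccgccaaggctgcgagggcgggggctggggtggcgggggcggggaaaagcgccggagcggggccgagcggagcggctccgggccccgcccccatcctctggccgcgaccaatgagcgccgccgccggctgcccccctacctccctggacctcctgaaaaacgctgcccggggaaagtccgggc
PLK2, chr5:58460087-58460336, minus strand: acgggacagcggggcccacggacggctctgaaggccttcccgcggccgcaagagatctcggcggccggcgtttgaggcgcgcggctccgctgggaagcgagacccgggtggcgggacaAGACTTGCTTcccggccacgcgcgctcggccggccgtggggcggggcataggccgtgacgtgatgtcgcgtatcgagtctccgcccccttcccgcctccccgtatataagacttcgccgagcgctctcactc
FDXR, chr17:74872995-74873244, minus strand: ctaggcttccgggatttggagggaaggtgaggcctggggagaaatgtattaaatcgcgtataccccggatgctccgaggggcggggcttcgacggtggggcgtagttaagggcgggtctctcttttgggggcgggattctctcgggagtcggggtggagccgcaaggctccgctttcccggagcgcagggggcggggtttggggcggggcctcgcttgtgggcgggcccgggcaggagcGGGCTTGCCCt
In CCNG2 the match CACGTG stood 30 to 25 bases before the start. The half-site stood 132 to 123 bases before the start in PLK2 and 11 to 2 bases before it in FDXR. The BTG2 window held no exact match to any of the 3 motifs.

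Gene counts per library were between 22853946 and 28635511, and 14892 genes had enough reads to be tested. All members but SPATA18, a gene of mitochondrial quality control with 13 reads over the 12 libraries, were among them. Levels are given as CPM, gene counts scaled to a common library size with TMM factors, which do not allow for gene length and so serve to compare libraries, not genes. Among 6 genes that mark HEK293 cells, NEFL and NEFM were at or near 0, with at most 3 reads per group each, and the others were present, for a summed level of 512 to 609 CPM. Summed fibroblast markers reached at most 8.93 CPM and blood cell markers at most 1.86 CPM.

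Libraries also fell into 2 classes by KRT19, a keratin gene of simple epithelia that was used here as a marker. It lay between 32.2 and 69.9 CPM in clone 4 HyT36 libraries 2 and 3, clone 4 DMSO library 1 and all 3 clone 5 DMSO libraries, and between 0.0419 and 0.235 CPM in the other 6. All 13 epithelial markers together summed to 128 to 269 CPM in the first class and 47.5 to 75.9 CPM in the second. KRT8 and KRT18 were present throughout, and without them the sums were 50 to 106 CPM and 4.30 to 6.62 CPM. Both classes occur with and without ligand in clone 4. In clone 5, class and ligand cannot be told apart, since every HyT36 library is low and every DMSO library is high. A term for the class was added to the model. Its size rests on the clone 4 libraries alone, because class and treatment coincide in clone 5. It was past the threshold for 298 genes that were higher in the first class and 6 that were lower. Only PLK2 (log2 difference 0.70) and TP53INP1 (1.92) among the members were past it, both higher where KRT19 was high, with edgeR adjusted p-values of 0.00071 and 0.0015. In bulk RNA, more cells with a transcript and more of it per cell cannot be told apart.

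In clone 4, HyT36 lowered p53 targets of the cell cycle and of cell death, and raised CCNG2. Of 33 members tested, 8 fell, 1 rose and 24 did not pass at an edgeR quasi-likelihood adjusted p under 0.05. Over all genes tested, 5.57% were called, 3.36% as lower and 2.21% as higher. Higher calls were 39.6% of these, and 48.7% with DESeq2 and its own size factors. The members' median log2 fold change was -0.16 and 26 of 33 were negative, while the median over all genes was 0.003. The libraries of both groups did not overlap for 17 members that were lower and 4 that were higher, where 11.8% and 11.7% of all genes showed no overlap in these directions. Leaving out any single library left 7 to 12 members called.

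In clone 5, 15 of the same 33 members fell with HyT36, 1 rose and 17 did not pass, where 8.19% of all genes were called, 4.83% as lower and 3.35% as higher (40.9% of the calls were higher, and 50.9% with DESeq2). The median log2 fold change of the members was -0.18, with 28 of 33 negative, against a median of -0.004 over all genes. No overlap was seen for 19 members that were lower and 2 that were higher, against 13.8% and 11.4% of all genes. Between 11 and 18 members were called when single libraries were left out. With KRT19 class as a term, 10 members fell and 1 rose in clone 5, where 9 fell and 1 rose in clone 4 in the same fit. That fit carries the class difference seen in clone 4 over to clone 5, where it could not be estimated. The clone 5 falls of CDKN1A, MDM2, PLK2, PPM1D and SERTAD1 no longer passed in that fit (adjusted p = 0.079, 0.052, 0.70, 0.19 and 0.20).

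**Figure D1:**
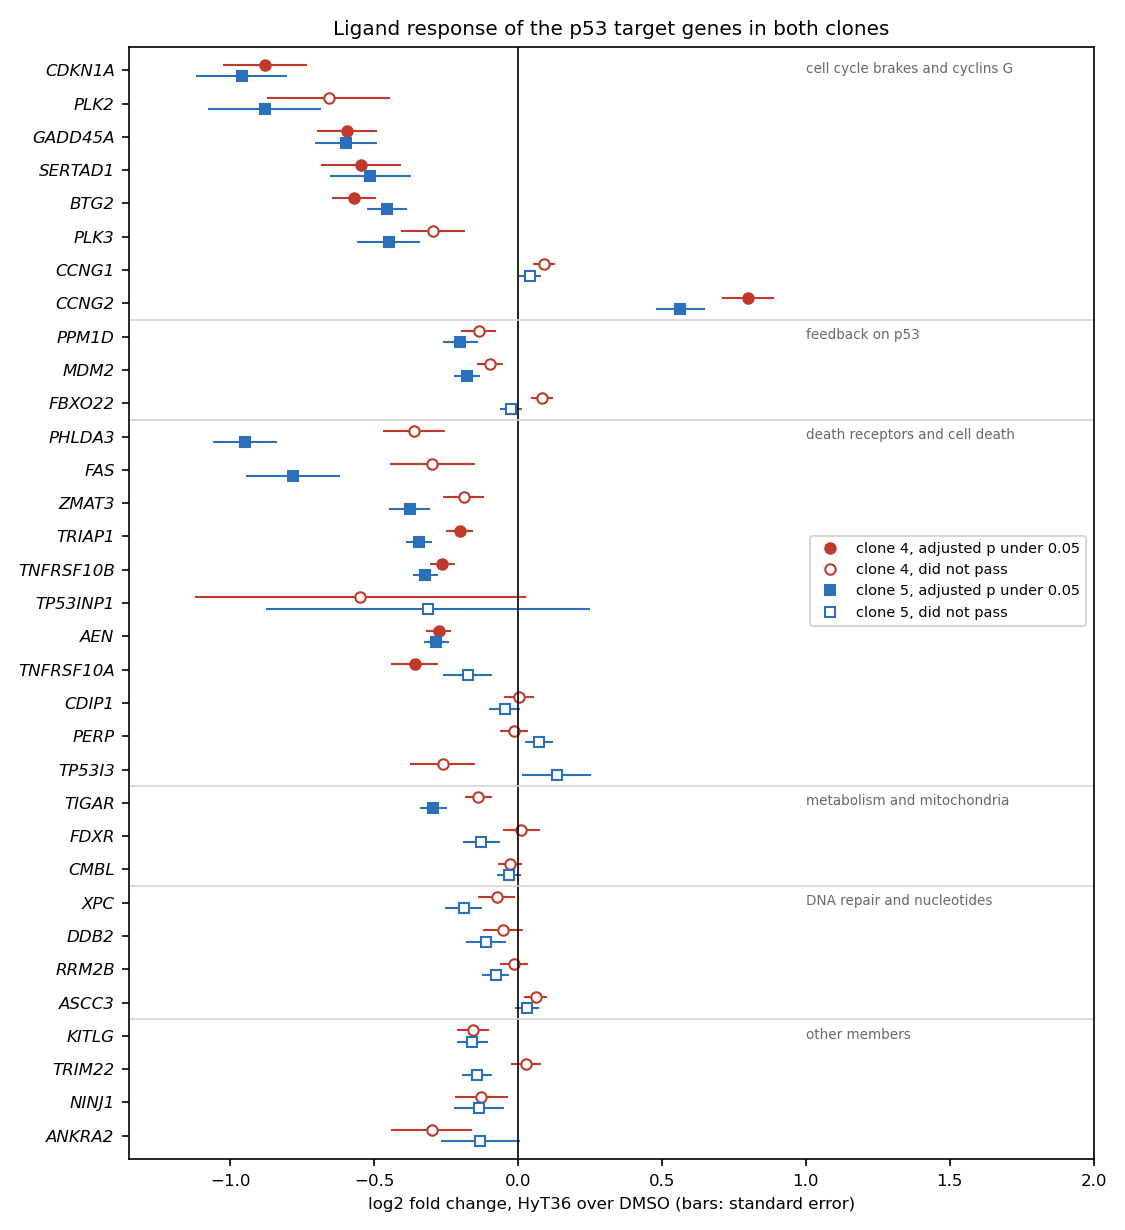
Log2 fold change of HyT36 over DMSO (horizontal axis, with its standard error) for the 33 members tested, grouped by role down the page, with clone 4 as red circles above clone 5 as blue squares. Filled symbols passed an adjusted p of 0.05: most lie left of 0, among them CDKN1A at -0.88 in clone 4 and -0.96 in clone 5, and CCNG2 alone passed to the right, at 0.80 and 0.56.

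The falls were shared in part. Of the 8 members that fell in clone 4, 7 also fell in clone 5, which is 87.5% of the clone 4 falls and 46.7% of the clone 5 falls: AEN, BTG2, CDKN1A, GADD45A, SERTAD1, TNFRSF10B and TRIAP1. TNFRSF10A passed in clone 4 and not in clone 5, and the difference between its responses did not pass (adjusted p = 0.73). Over all genes tested, 288 fell in both clones, or 1.93%. The log2 fold changes had the same sign in both clones for 27 of 33 members. Across these 33 genes, which are not independent replicates, the clone 4 and clone 5 responses had a Pearson r of 0.83 and a Spearman rho of 0.82. The responses rest on separate libraries and share only the estimate of the spread. For the sign count and the correlations no value over all genes is given here, and the members were chosen with earlier results known.

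The shift was visible library by library. In clone 4, 26, 24 and 25 of 33 members lay below the clone 4 DMSO mean in HyT36 libraries 1, 2 and 3. In clone 5, 26, 27 and 29 of 33 lay below the clone 5 DMSO mean. Every HyT36 library of either clone thus had at least 24 of the 33 members below its DMSO mean. No such count over all genes is given here. The members were chosen with earlier results of these data known, so these counts are not separate support.

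**Figure D2:**
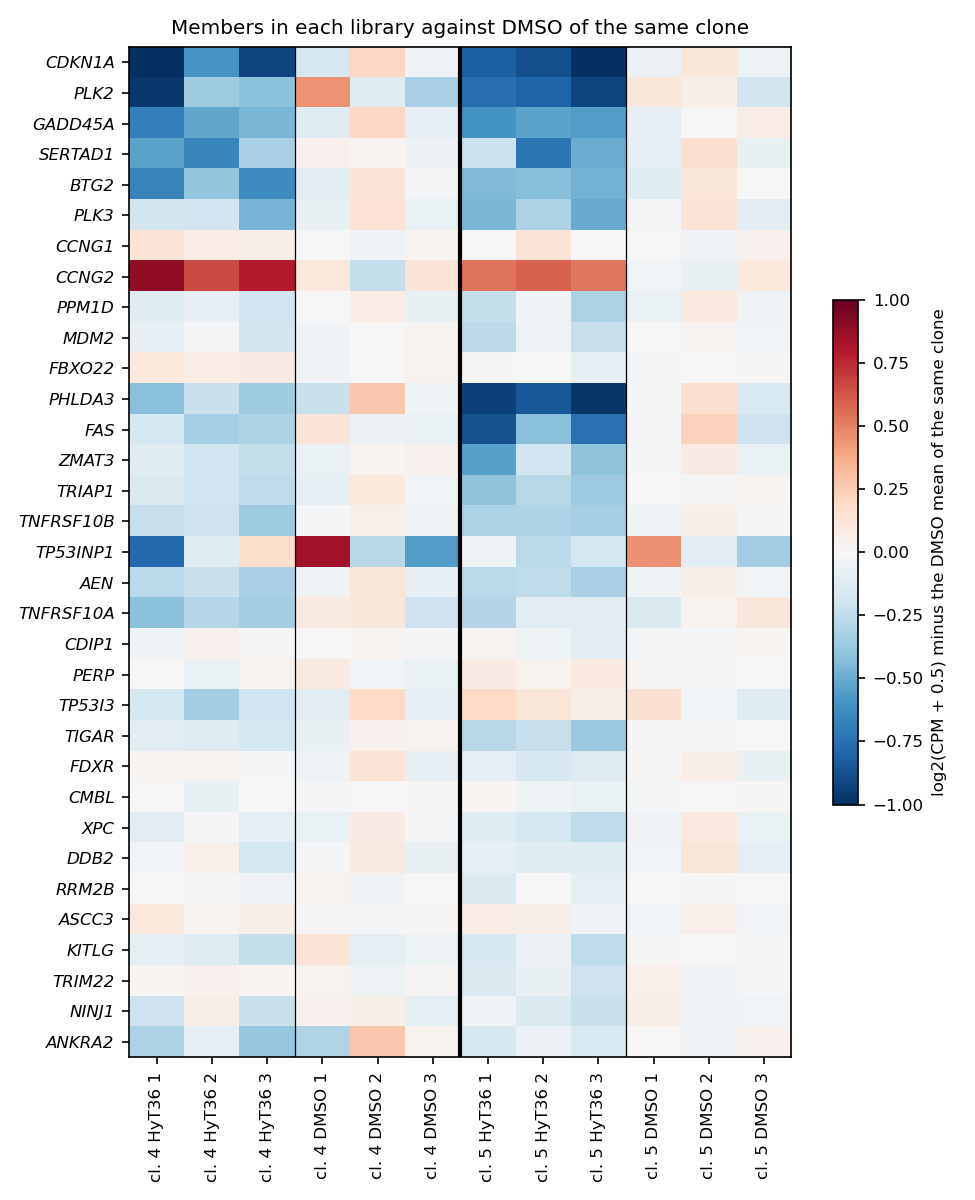
Each tile is the level of a member (down the page, by role) in a library (across, HyT36 left of DMSO within each clone), as log2(CPM + 0.5) minus the mean of the DMSO libraries of the same clone, with blue for lower and red for higher, and colours held at -1 and 1. Blue rows for CDKN1A, PLK2, GADD45A, SERTAD1 and BTG2 run through both HyT36 blocks, PHLDA3 and FAS are deeper in clone 5, CCNG2 is red in both, and TP53INP1 varies among replicates of a group.

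CDKN1A, on chromosome 6 from 36676463 to 36687332 (GRCh38.p14), codes for p21, the inhibitor of cyclin-dependent kinases that is the classical p53 target in cell cycle arrest. It had 20.9, 30.1 and 23.9 CPM in clone 4 with HyT36, against 40.5, 52.7 and 44.4 CPM with DMSO. In clone 5 it had 16.5, 15.8 and 13.3 CPM with HyT36, against 28.2, 31.9 and 28.4 CPM with DMSO. Every HyT36 library was below every DMSO library of its clone. The log2 fold change was -0.88 ± 0.15 in clone 4 (SE, adjusted p = 0.0086) and -0.96 ± 0.16 in clone 5 (adjusted p = 0.0061), which is 1.84 and 1.95 times lower. The clone 4 fall did not pass without HyT36 replicate 3 (adjusted p = 0.056) or with that clone fitted alone (0.081). Within the KRT19-low libraries of clone 4 the log2 fold change was -1.22, and within the KRT19-high ones it was -0.59, with adjusted p-values of 9.8e-27 and 0.0021. Each of these fits has a single library in 1 arm, taken to vary as the remaining groups do.

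GADD45A, a stress-induced partner of PCNA and of p21, had 6.56, 7.40 and 7.78 CPM in clone 4 with HyT36, against 9.94, 12.6 and 10.2 CPM with DMSO. In clone 5 its levels were 6.61, 6.91 and 6.79 CPM with HyT36, against 9.66, 10.3 and 10.8 CPM with DMSO. Groups were apart in both clones, and the log2 fold changes of -0.59 ± 0.10 and -0.60 ± 0.11 differed by -0.005 ± 0.149. BTG2, an antiproliferative protein that recruits the mRNA deadenylase complex, had 22.9, 28.0 and 23.5 CPM in clone 4 with HyT36, against 33.9, 40.1 and 36.3 CPM with DMSO. For clone 5 the levels were 49.8, 50.2 and 48.6 CPM with HyT36, against 62.3, 73.7 and 67.8 CPM with DMSO. BTG2 fell by 0.57 on the log2 scale in clone 4 (adjusted p = 3.3e-05) and by 0.46 in clone 5 (adjusted p = 0.00015). In the KRT19-high libraries of clone 4 alone, GADD45A and BTG2 kept negative log2 fold changes, -0.39 and -0.40, that did not pass (adjusted p = 0.10 and 0.061).

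SERTAD1, a transcriptional coregulator that binds CDK4, had 4.47, 4.07 and 5.24 CPM in clone 4 with HyT36, against 6.90, 6.79 and 6.41 CPM with DMSO. Its clone 5 levels were 5.44, 3.65 and 4.37 CPM with HyT36, against 5.92, 7.25 and 6.05 CPM with DMSO. The gene fell by 0.55 in clone 4 and by 0.51 in clone 5 on the log2 scale (adjusted p = 0.011 and 0.015). In clone 4 the fall was lost without HyT36 replicate 1 or 2 (adjusted p = 0.055 and 0.096), and within the KRT19-low and the KRT19-high libraries (0.15 and 0.057). In clone 5 it was lost without DMSO replicate 2 (adjusted p = 0.13) and without HyT36 replicate 2 or 3 (0.15 and 0.061).

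The polo-like kinase genes PLK2 and PLK3 act in centriole duplication and in stress checkpoints. PLK2 had 5.94, 5.73 and 5.26 CPM in clone 5 with HyT36, against 11.3, 10.9 and 9.08 CPM with DMSO. In clone 4 the values were 2.60, 4.22 and 4.04 CPM with HyT36, against 7.74, 5.06 and 4.33 CPM with DMSO, and the highest DMSO library is the one with high KRT19. PLK2 fell by 0.88 in clone 5 (adjusted p = 0.012), where the fall was lost without DMSO replicate 1 or 2 or HyT36 replicate 2 or 3 (0.061 to 0.064). In clone 4 the log2 fold change of -0.66 ± 0.21 did not pass (adjusted p = 0.10). With KRT19 class as a term, PLK2 stood at -0.89 in clone 4 and passed (adjusted p = 1.2e-05), and at -0.18 in clone 5, where it did not pass (0.70). PLK3 had 7.20, 8.03 and 6.96 CPM in clone 5 with HyT36, against 9.91, 11.1 and 9.29 CPM with DMSO, and in clone 4 it had 7.28, 7.26 and 5.93 CPM with HyT36, against 7.91, 9.26 and 7.95 CPM with DMSO. It fell by 0.45 in clone 5 (adjusted p = 0.0062, and 0.068 without DMSO replicate 2), and stood at -0.29 ± 0.11 in clone 4, where it did not pass (0.13).

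CCNG2 was the only member to rise, and it did so in both clones. Cyclin G2 is an unconventional cyclin linked to cell cycle arrest, and its gene is also a target of FOXO factors. It lies on chromosome 4 from 77157207 to 77170060. Clone 4 libraries with HyT36 had 19.2, 16.4 and 18.0 CPM of CCNG2, against 11.0, 8.55 and 11.2 CPM with DMSO. The clone 5 libraries had 21.3, 22.1 and 21.1 CPM with HyT36, against 14.2, 13.7 and 15.6 CPM with DMSO. The groups stayed apart in both clones, with log2 fold changes of 0.80 ± 0.09 and 0.56 ± 0.09 (adjusted p = 2.8e-08 and 1.2e-05), or 1.74 and 1.48 times higher. These calls held under all 21 alternatives in clone 4 and all 19 in clone 5. Its relative CCNG1, cyclin G1, which brings a phosphatase to MDM2, averaged 280 ± 8.26 CPM with HyT36 and 263 ± 6.33 CPM with DMSO in clone 4, and 245 ± 12.6 CPM and 238 ± 7.28 CPM in clone 5 (SD, n = 3). Its log2 fold changes, 0.09 ± 0.04 and 0.04 ± 0.04, did not pass (adjusted p = 0.19 and 0.62). CCNG1 overlaps NUDCD2 and the counting's strand is not stated, so reads of that gene cannot be told apart from its own.

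**Figure D3:**
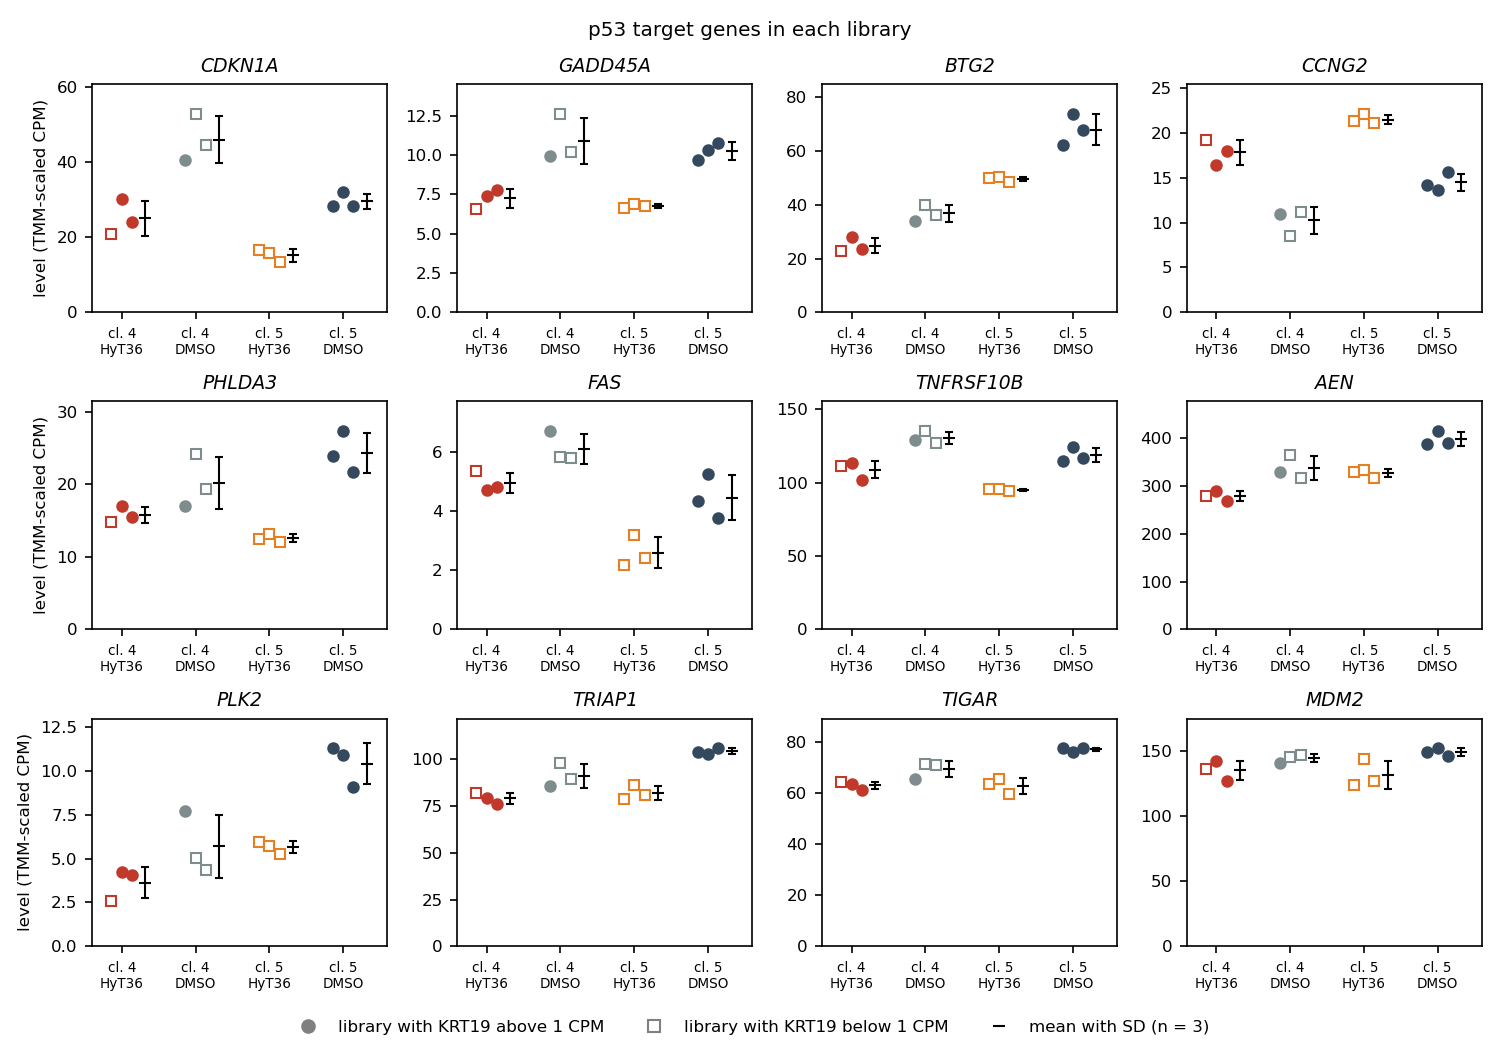
Level in TMM-scaled CPM (vertical axis, from 0) of 12 members in each of the 12 libraries, HyT36 left of DMSO for clone 4 (cl. 4) and clone 5 (cl. 5), with group mean and SD. Filled circles are libraries with KRT19 above 1 CPM and open squares those below: the clone 5 groups differ in both ligand and symbol, while in clone 4 both symbols occur in each group and CDKN1A, GADD45A, BTG2 and CCNG2 stay apart whichever symbol is read.

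Feedback on p53 was represented by 3 members, none of which passed in clone 4 and 2 of which fell in clone 5. Of all genes, 4.83% were called as lower in clone 5. MDM2, the ubiquitin ligase for p53, had 124, 144 and 127 CPM in clone 5 with HyT36, against 149, 152 and 146 CPM with DMSO. In clone 4 it had 136, 142 and 127 CPM with HyT36, against 141, 145 and 147 CPM with DMSO, and these overlap. MDM2 fell by 0.18 on the log2 scale in clone 5 (adjusted p = 0.0089), a fall that was lost without DMSO replicate 2 (0.058) or HyT36 replicate 1 or 3 (0.11 and 0.088), and stood at -0.10 ± 0.05 in clone 4 (0.24). PPM1D, the WIP1 phosphatase that switches off p53 signalling, averaged 46.6 ± 4.73 CPM with HyT36 and 53.5 ± 3.36 CPM with DMSO in clone 5. Its fall of 0.20 there (adjusted p = 0.037) held in 10 of 19 alternatives only, and DESeq2 gave 0.060. In clone 4 PPM1D averaged 44.8 ± 1.92 CPM with HyT36 and 49.3 ± 2.5 CPM with DMSO, without passing (adjusted p = 0.22). FBXO22, a ubiquitin ligase subunit that acts on methylated p53, stood at 0.08 ± 0.04 in clone 4 and -0.02 ± 0.04 in clone 5 and did not pass (0.22 and 0.80).

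Death receptors and cell death genes made up 11 tested members, of which 4 fell in clone 4 and 6 in clone 5, and none rose. Of all genes, 3.36% were called as lower in clone 4 and 4.83% in clone 5. TNFRSF10B, the TRAIL receptor DR5, lies on chromosome 8 from 23020133 to 23069031. It had 111, 113 and 102 CPM in clone 4 with HyT36, against 129, 135 and 127 CPM with DMSO. In clone 5 it had 95.4, 95.5 and 94.3 CPM with HyT36, against 115, 124 and 117 CPM with DMSO. It fell by 0.26 on the log2 scale in clone 4 and by 0.32 in clone 5 (adjusted p = 4.4e-05 and 1.6e-06), and both calls held under every alternative run, with an adjusted p of at most 0.046. The second TRAIL receptor gene, TNFRSF10A, had 18.1, 19.8 and 18.9 CPM in clone 4 with HyT36, against 25.8, 26.2 and 20.9 CPM with DMSO, and fell by 0.36 (adjusted p = 0.0047). Within KRT19-low libraries that fall did not pass (0.060). Clone 5 had 15.2, 17.4 and 17.4 CPM of TNFRSF10A with HyT36, against 16.9, 19.3 and 20.3 CPM with DMSO, which overlap, at -0.17 ± 0.09 (adjusted p = 0.24).

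FAS, the receptor for FAS ligand, had 2.18, 3.17 and 2.42 CPM in clone 5 with HyT36, against 4.33, 5.26 and 3.75 CPM with DMSO. In clone 4 its levels were 5.34, 4.70 and 4.81 CPM with HyT36, against 6.69, 5.81 and 5.79 CPM with DMSO. Neither pair of groups overlapped. FAS fell by 0.78 in clone 5 (adjusted p = 0.0012), and its clone 4 value of -0.30 ± 0.15 did not pass (0.27). FAS overlaps ACTA2 in the annotation, which had 118 reads in all against 1377 for FAS.

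PHLDA3, whose product holds the kinase AKT away from the membrane, had 12.4, 13.2 and 12.1 CPM in clone 5 with HyT36, against 23.9, 27.3 and 21.7 CPM with DMSO. The clone 4 values were 14.8, 17.0 and 15.5 CPM with HyT36, against 17.0, 24.1 and 19.4 CPM with DMSO. The clone 5 groups stand far apart, and in clone 4 the highest HyT36 library nearly meets the lowest DMSO library. It fell by 0.95 in clone 5 (adjusted p = 1.9e-05), 1.93 times lower, which held under all 19 alternatives. In clone 4 the log2 fold change of -0.36 ± 0.11 did not pass (adjusted p = 0.063). It did with DESeq2, with no filter on low counts and with the replicate number as a block. It also passed without clone 4 DMSO replicate 1 and without clone 5 DMSO replicate 2 or 3. The log2 fold change was -0.56 within the KRT19-low libraries of clone 4 and -0.07 within the KRT19-high ones.

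AEN, an exonuclease gene of the apoptotic response on chromosome 15, had 279, 289 and 269 CPM in clone 4 with HyT36, against 329, 366 and 318 CPM with DMSO. Its clone 5 levels were 330, 334 and 317 CPM with HyT36, against 389, 415 and 390 CPM with DMSO. The fall was 0.28 on the log2 scale in each clone (adjusted p = 6.1e-05 and 3.5e-05) and held under all alternatives. TRIAP1, a small mitochondrial protein that restrains apoptosis, had 82.1, 79.1 and 76.4 CPM in clone 4 with HyT36, against 86.0, 98.0 and 89.3 CPM with DMSO. Clone 5 showed 78.8, 86.2 and 81.0 CPM with HyT36, against 104, 103 and 106 CPM with DMSO. TRIAP1 fell by 0.20 in clone 4 (adjusted p = 0.0045) and by 0.34 in clone 5 (1.8e-06). The clone 4 fall was lost without DMSO replicate 2 (0.090) or HyT36 replicate 3 (0.074), and within the KRT19-low and the KRT19-high libraries (0.22 and 0.12).

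ZMAT3, an RNA-binding regulator of splicing, had 23.0, 29.5 and 25.4 CPM in clone 5 with HyT36, against 33.4, 35.6 and 32.1 CPM with DMSO. In clone 4 it had 29.4, 27.8 and 27.1 CPM with HyT36, against 30.6, 32.5 and 32.9 CPM with DMSO. ZMAT3 fell by 0.38 in clone 5 (adjusted p = 0.00036) and stood at -0.19 ± 0.07 in clone 4 (0.12). TP53INP1, a nuclear cofactor of p53, rested on 223 reads in all, overlaps NDUFAF6 with its 4871 reads, and spanned 0.216 to 0.885 CPM with HyT36 and 0.333 to 1.69 CPM with DMSO in clone 4. Its standard errors of 0.57 and 0.56 were as large as or larger than its log2 fold changes of -0.55 and -0.31. CDIP1, PERP and TP53I3 did not pass in either clone, with log2 fold changes from -0.26 to 0.00 in clone 4 and from -0.05 to 0.14 in clone 5.

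TIGAR, a phosphatase that restrains glycolysis, had 63.5, 65.7 and 59.6 CPM in clone 5 with HyT36, against 77.7, 76.4 and 77.6 CPM with DMSO. Its levels in clone 4 were 64.3, 63.5 and 61.5 CPM with HyT36, against 65.8, 71.4 and 71.1 CPM with DMSO. TIGAR fell by 0.29 in clone 5 (adjusted p = 3.3e-05, at most 0.0018 under the alternatives), and its clone 4 value of -0.14 ± 0.05 did not pass (0.080). FDXR, the mitochondrial ferredoxin reductase, averaged 32.1 ± 0.577 CPM with HyT36 and 31.8 ± 2.77 CPM with DMSO in clone 4. In clone 5 FDXR averaged 29.7 ± 0.797 CPM with HyT36 and 32.4 ± 1.52 CPM with DMSO and did not pass (adjusted p = 0.26). CMBL, a hydrolase, differed by -0.03 ± 0.04 in each clone.

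None of the 4 members of DNA repair and nucleotide supply passed in either ligand response by edgeR, DESeq2 or limma-voom. By unadjusted edgeR p under 0.05 the count was 0 in clone 4 and 1 in clone 5. These are XPC and DDB2, which recognise ultraviolet damage, RRM2B, a subunit of ribonucleotide reductase, and ASCC3, a helicase. XPC averaged 28.8 ± 1.37 CPM with HyT36 and 32.9 ± 2.09 CPM with DMSO in clone 5 (log2 fold change -0.19, adjusted p = 0.063). The others lay between -0.11 and 0.03 there, and all 4 between -0.07 and 0.06 in clone 4. Likewise the remaining 4 members did not pass: KITLG, the ligand of the receptor KIT, TRIM22, an interferon-induced protein, NINJ1, which acts in membrane rupture, and ANKRA2, an ankyrin repeat protein. Their log2 fold changes lay between -0.30 and 0.03 in clone 4 and between -0.16 and -0.13 in clone 5.

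Whether the ligand responses differed between the clones was tested as the clone 5 response minus the clone 4 response. The count of members that passed was 0 with each of edgeR, limma-voom and DESeq2. An unadjusted p under 0.05 was reached by 6 of them in edgeR, and 45 of all genes, or 0.302%, were called. The difference was negative for 26 of 33 members, with a median of -0.06 against -0.01 over all genes. PHLDA3 stood at -0.59 ± 0.16 (adjusted p = 0.18), FAS at -0.48 ± 0.22 (0.58) and TP53I3 at 0.40 ± 0.17 (0.52). PHLDA3 did pass with no filter on low counts, with the replicate number as a block, and without clone 4 DMSO replicate 1 or 2. For CDKN1A the difference was -0.08 ± 0.22 and for TNFRSF10B -0.06 ± 0.06. The errors of CDKN1A and TNFRSF10B leave room for differences of either sign.

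**Figure D4:**
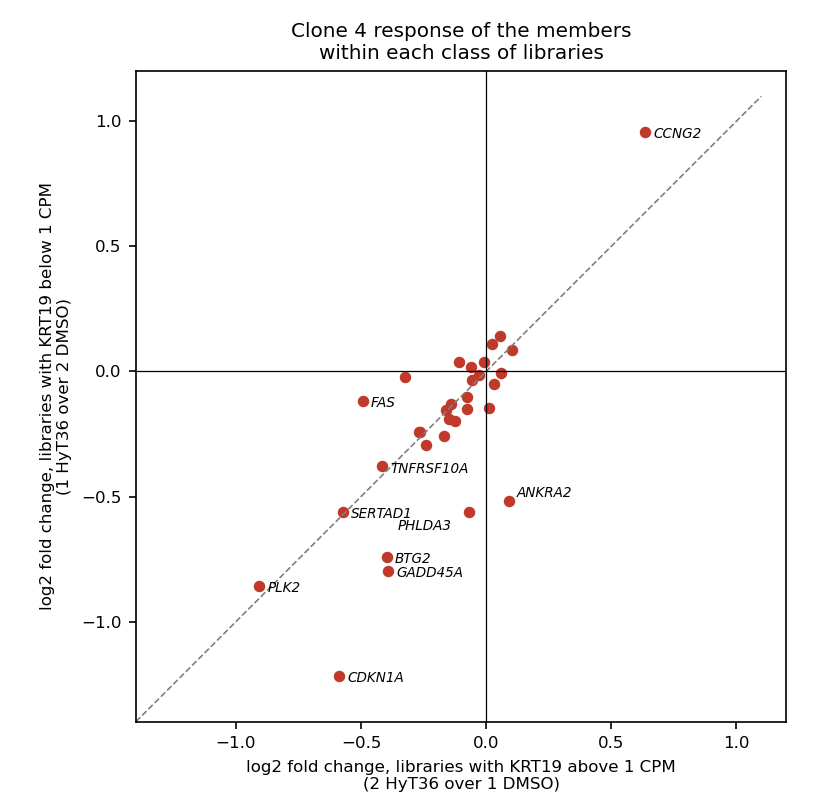
Log2 fold change of HyT36 over DMSO in clone 4 within the libraries with KRT19 above 1 CPM (horizontal, 2 HyT36 libraries over 1 DMSO) and below 1 CPM (vertical, 1 over 2) for 32 members, with a dashed line of equality. In all, 21 of the 32 lie below 0 on both axes, CCNG2 lies above 0 on both, and TP53INP1 is left off at -1.16 and -0.95.

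Without ligand, the clones differed in many genes, members among them in both directions. Comparing clone 5 DMSO with clone 4 DMSO, 14 of 33 members were higher, 9 were lower and 10 did not pass. Over all genes 55.5% were called, 27.3% as higher and 28.2% as lower. The groups did not overlap for 13 members that were higher and 9 that were lower, where 29.8% and 29.9% of all genes showed no overlap. BTG2 was 1.85 times higher in clone 5, with the DMSO values given above (log2 difference 0.89 ± 0.07, adjusted p = 2.5e-10). CDKN1A was lower in clone 5 (-0.64 ± 0.14, adjusted p = 0.0045), and so were TNFRSF10A (-0.37) and TNFRSF10B (-0.13). Thus members of the same role stood apart in both directions.

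ASCC3 had 90.8, 95.8 and 90.7 CPM in clone 5 with DMSO, against 148, 145 and 148 CPM in clone 4 with DMSO, for a log2 difference of -0.67 ± 0.04 (adjusted p = 1.3e-17). RRM2B had 65.0, 66.0 and 65.0 CPM in clone 5, against 49.4, 47.0 and 48.3 CPM in clone 4 (0.44 ± 0.05, adjusted p = 4.1e-10). DDB2, of the same role, was also higher in clone 5 (0.21 ± 0.07, adjusted p = 0.0092). Of the 4 members of this role, 2 were higher and 1 was lower, where 55.5% of all genes were called in either direction. KITLG had 88.8, 88.3 and 86.6 CPM in clone 5, against 69.4, 59.4 and 61.1 CPM in clone 4 (0.47 ± 0.05). PERP, a membrane protein of desmosomes, had 67.9, 66.3 and 67.6 CPM in clone 5, against 56.2, 51.9 and 50.4 CPM in clone 4 (0.35 ± 0.05). Both were higher in every clone 5 library. TP53I3, an oxidoreductase gene, had 6.96, 6.07 and 5.65 CPM in clone 5, against 8.34, 10.5 and 8.53 CPM in clone 4 (-0.56 ± 0.12, adjusted p = 8.8e-05). FBXO22 had 145, 146 and 147 CPM in clone 5, against 160, 163 and 168 CPM in clone 4 (-0.17 ± 0.04), CCNG1 stood at -0.14 ± 0.04, and CMBL at 0.16 ± 0.04. Leaving out 1 library ended the calls of CDIP1, DDB2, FAS, PHLDA3, PLK3, TIGAR and TNFRSF10B in this comparison, with adjusted p-values of up to 0.069, 0.10, 0.076, 0.16, 0.18, 0.053 and 0.051. With KRT19 class as a term, TNFRSF10B and NINJ1 did not pass (0.064 and 0.052), and within the KRT19-high libraries CDIP1, DDB2, NINJ1, PLK3 and TNFRSF10B did not (0.097, 0.052, 0.062, 0.051 and 0.065).

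**Figure D5:**
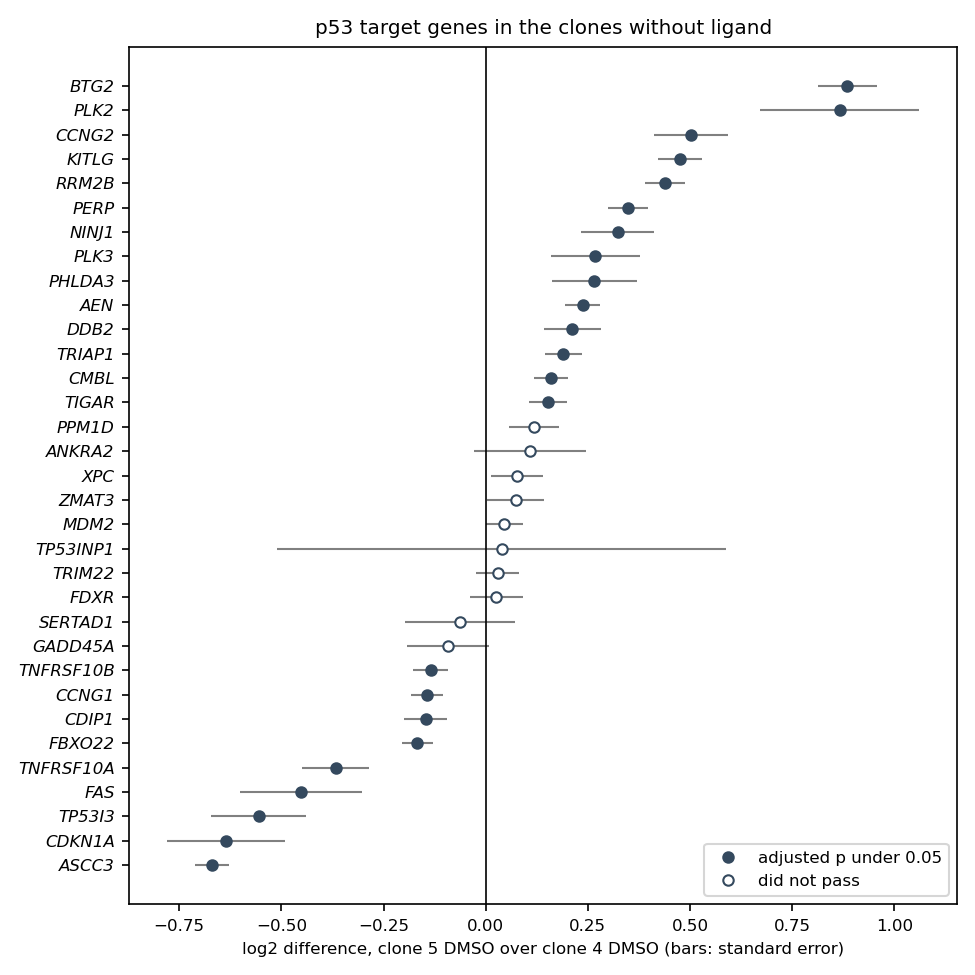
Log2 difference of clone 5 DMSO over clone 4 DMSO (horizontal axis, with its standard error) for the 33 members tested, ordered by size, with filled points past an adjusted p of 0.05. Points run from BTG2 at 0.89 to ASCC3 at -0.67, with 14 filled to the right of 0 and 9 filled to the left.

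Among genes that act on p53 itself, edgeR called none lower in either ligand response. Of 24 tested regulators, 3 rose with HyT36 in clone 4 and 5 in clone 5, against 2.21% and 3.35% of all genes. In these ligand responses, an unadjusted edgeR p under 0.05 in either direction was reached by 5 and 7 of them. DESeq2 called 2 and 5 there, and limma-voom 2 and 4. Between the clones with DMSO, 8 of the 24 were higher in clone 5 and 8 were lower, against 27.3% and 28.2% of all genes. SIRT1, a deacetylase that acts on p53, had 92.1, 91.3 and 93.3 CPM in clone 4 with HyT36, against 79.1, 78.7 and 81.2 CPM with DMSO (log2 fold change 0.21, adjusted p = 0.00087). COP1, a ubiquitin ligase for p53, rose by 0.28 in clone 4 (adjusted p = 0.0020), and PPP1R13B, a p53 cofactor, by 0.29 (0.047), which was kept in 6 of 21 alternatives and was at most 0.33 without 1 library. Within the KRT19-low libraries the clone 4 rises of SIRT1, COP1 and PPP1R13B did not pass (adjusted p = 0.15, 0.31 and 0.75), and that of PPP1R13B did not within the KRT19-high ones (0.13) or with the class as a term (0.12) either. TP53BP1, a DNA damage adaptor, rose by 0.31 in clone 5 (adjusted p = 2.8e-05), as did HUWE1 (0.25), HIPK2 (0.23), CREBBP (0.20) and TP53BP2 (0.14). The calls of CREBBP and TP53BP2 were lost in some fits without 1 library (adjusted p up to 0.12 and 0.21), and that of TP53BP2 also with KRT19 class as a term (0.19). MDM4, the inhibitory partner of MDM2, averaged 22.6 ± 1.45 CPM with HyT36 and 20.2 ± 2.14 CPM with DMSO in clone 4. In clone 5 MDM4 averaged 22.6 ± 5.66 CPM with HyT36 and 21.5 ± 2.14 CPM with DMSO, and it passed in neither (adjusted p = 0.67 and 0.87).

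A further 29 known p53 targets outside the 34 were read in the same way, and 24 of them were tested. In clone 4, 2 rose and 2 fell, with a median of -0.04, where 2.21% of all genes were called as higher and 3.36% as lower. SESN2, a sestrin induced by several stresses, had 67.2, 65.8 and 65.1 CPM with HyT36, against 34.3, 45.2 and 35.2 CPM with DMSO, and rose by 0.79 (adjusted p = 0.00020). PMAIP1, which codes for the cell death protein NOXA, rose by 0.33 (adjusted p = 0.00021). GDF15, a stress cytokine, had 0.433, 0.740 and 0.808 CPM with HyT36, against 2.75, 2.16 and 1.37 CPM with DMSO, and fell by 1.66 (adjusted p = 0.00021), while the survival gene BCL2L1 fell by 0.21 (0.025). In clone 5 none rose and 4 fell, with a median of -0.10, where 3.35% of all genes were called as higher and 4.83% as lower. TNFRSF10C, a decoy receptor for TRAIL, had 0.795, 1.56 and 0.891 CPM with HyT36, against 2.75, 2.5 and 2.88 CPM with DMSO, and fell by 1.32 (adjusted p = 7.0e-05). RPS27L (-0.23), DRAM1 (-0.37) and PIDD1 (-0.24) fell too, with adjusted p-values of 0.0016, 0.016 and 0.036. When single libraries were left out, BCL2L1, DRAM1 and PIDD1 failed to pass in some fits (adjusted p up to 0.20, 0.089 and 0.19). They did not pass with KRT19 class as a term either (0.052, 0.51 and 0.32), nor did BCL2L1 within the KRT19-low or KRT19-high libraries (0.54 and 0.054).

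p21 is known to hold down cell cycle genes through the DREAM complex, and 26 such genes were tested. In clone 4, 2 rose, MYBL2 (0.20, adjusted p = 0.00086) and TOP2A (0.13, 0.029), and CDC25A fell (-0.13, 0.035). In clone 5, TOP2A (0.17) and BUB1B (0.15) rose, and KIF23 (-0.20), AURKA (-0.18), CDC25A (-0.16) and BIRC5 (-0.14) fell. Over all genes, 2.21% were called as higher and 3.36% as lower in clone 4, and 3.35% and 4.83% in clone 5. The median log2 fold change of the 26 was 0.02 in either clone. Between the clones with DMSO, 1 of the 26 was higher in clone 5 and 16 were lower, against 27.3% and 28.2% of all genes. Omitting single libraries ended the clone 4 calls of TOP2A and CDC25A (adjusted p up to 0.14 and 0.26) and the clone 5 calls of BUB1B and BIRC5 (up to 0.067 and 0.15). Within the KRT19-low libraries of clone 4, MYBL2, TOP2A and CDC25A did not pass (0.57, 0.10 and 0.43), and the MYBL2 log2 fold change there was 0.097. TOP2A and CDC25A did not within the KRT19-high ones either (0.40 and 0.18). In clone 5, BUB1B and CDC25A did not pass with the class as a term (0.32 and 0.089).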

How the data were processed

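Bulk RNA of 12 HEK293 libraries was analysed, in 4 groups of 3, while the other 24 samples of the series were not analysed here. RNA was polyA-selected before library making with NEBNext Ultra II reagents, per the labels' protocols. The authors deposited raw counts that were not normalized. Per the file headers the table holds 36601 genes, 22344 guides and 4 read summaries. Only gene counts, 82.4 to 83.9% of a library's total, entered library sizes and tests. The submitters' processing notes name GRCh38 and Cell Ranger 7 without saying what they were used for. For the bulk counts no aligner, annotation or strand setting is stated in the sources used here, so overlapping genes may share reads.

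Tests used edgeR 4.0.16 in R 4.3.3: filterByExpr by group, TMM, and the robust two-sided quasi-likelihood F-test with 1 mean per group over all 12 libraries. Adjusted p-values were taken by Benjamini-Hochberg over all 14892 genes tested, with a threshold of 0.05, and are meant by every p printed without another tool's name. A standard error was computed as |log2 fold change| over the root of F, and the prior count was 0.125. Alternatives were DESeq2 1.42.0, limma-voom (limma 3.58.1), RLE factors, no filter, a replicate block, each clone alone, each library left out, and KRT19 class as a term or a restriction, the last chosen after seeing the data. The code was tested on simulated counts.

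Gene counts of 22853946 to 28635511 per library put more than 20 reads behind a gene at 1 CPM. Replicates are not stated to be separate cultures, so p-values measure the spread between these libraries, which may be technical. Chi-square per degree of freedom between replicates was 1.93 to 8.43, so none looked like a library deposited more than once. The members, the lists of other genes and their roles were chosen with earlier results of these data known. All 34 members are named. Values of every library are given for the 16 with the smallest p in a ligand response. Up to 8 more are given in this way for the clone comparison. Of the other lists, the members past the threshold in a ligand response are named. The rule set at most 5 a list and comparison, but all 6 DREAM genes called in clone 5 are named. Results for a gene outside the 34 that the rule also covers are left out. Promoter windows are RefSeq's on GRCh38.p14, matched by symbol.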

Additional observations from a re-analysis of the deposited data

Results flagged for a closer look

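No member's ligand response differed between the clones at the threshold, but those of 3 genes from the lists around p53 did, by the test of the difference itself. For SESN2 the clone 5 response minus the clone 4 response was -0.72 ± 0.13 on the log2 scale (edgeR adjusted p = 0.044). SESN2 averaged 48.5 ± 1.64 CPM with HyT36 and 46.3 ± 4.21 CPM with DMSO in clone 5, and 66.0 ± 1.04 CPM with HyT36 and 38.2 ± 6.05 CPM with DMSO in clone 4. For PMAIP1 the difference was -0.42 ± 0.09 (adjusted p = 0.013), with 28.9 ± 2.41 CPM with HyT36 and 30.8 ± 0.137 CPM with DMSO in clone 5, and 46.0 ± 1.53 CPM and 36.7 ± 0.736 CPM in clone 4. For HUWE1, a large ubiquitin ligase that acts on p53, it was 0.25 ± 0.06 (adjusted p = 0.041), with 462 ± 3.67 CPM with HyT36 and 388 ± 15.5 CPM with DMSO in clone 5, and 285 ± 15.7 CPM and 285 ± 15.0 CPM in clone 4. The differences were kept in 10 of 18 alternatives for SESN2, 15 of 18 for PMAIP1 and 8 of 18 for HUWE1. Without a single library the adjusted p reached 0.19, 0.074 and 0.20. With KRT19 class as a term it was 0.088 for HUWE1.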

How the results depend on the processing

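No direction of a member's call was reversed under any alternative run. Counts of members called in the ligand responses and the clone comparison stayed within 1.5 times the values reported. Leaving out 1 library gave 7 to 12 members in clone 4, 11 to 18 in clone 5, 0 to 1 for the difference of responses and 19 to 23 between the clones. For the difference of responses the count was 1 in place of 0 with no filter on low counts and with the replicate block, each time PHLDA3, and with KRT19 class as a term, TP53INP1. Over all genes, clone 4 calls numbered 830, and 1037 with KRT19 class as a term and 409 to 851 without 1 library. Counts within a KRT19 class are not given, since those fits have a single library in 1 arm. Clone 5 calls numbered 1219, and 776 with KRT19 class as a term and 755 to 1618 without 1 library. The 45 calls of the difference became 169 with no filter, 12 with limma-voom, 244 with KRT19 class as a term and 25 to 140 without 1 library. The cause was not tested.

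Same-numbered HyT36 and DMSO libraries did not deviate together (r = -0.445, -0.145 and -0.254 in clone 4, and -0.057, -0.102 and -0.168 in clone 5). These values cannot tell whether such libraries were handled together, since in clone 4 same-numbered libraries differ in KRT19 class. With the replicate number as a block, 10 members were called in clone 4, 17 in clone 5 and 23 between the clones. The planned split of libraries by summed epithelial markers above 20 CPM was not run because all 12 lie above it. In clone 5 no fit within a KRT19 class was possible, since each class holds 1 treatment. Genes with few reads, such as TP53INP1, allow no statement on small changes at this depth.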
